A study of Mus musculus with 3 samples.

Results

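The immediate-early genes described here are 10 listed genes, found by their symbols among the 22100 genes measured in each library: Fos, Fosb, Jun, Junb, Atf3, Egr1, Nr4a1, Ier2, Zfp36 and Dusp1. They were followed through 3 single-cell libraries of the mouse small intestine, 1 each from embryos at E15.5 and E17.5, days counted from mating, and from pups at P7, day 7 after birth. The animals of every stage were wild type and untreated, and the sources used here give neither their strain nor their sex nor how many were pooled. The cells were viable and sorted as Epcam+, or as negative for Epcam, CD31 and CD45, before 3′ droplet sequencing. With 1 library a stage no test between stages exists, values are given stage by stage, and each interval in brackets is at 95% and covers counting error only.

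Immediate-early genes are the first genes that a cell switches on after a growth factor, a calcium signal or a stress, and they do so without new protein, through kinases of the MAPK cascade and the factors SRF, CREB and the ternary complex factors, which already sit at their promoters. Many encode transcription factors that pass the signal on to later genes, while others encode enzymes that end it, and most of their mRNAs are short-lived. Warm enzymatic dissociation of a tissue is itself known to switch them on, so a level in a single-cell library can include what handling added.

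The libraries held 8447, 11598 and 8391 cells at E15.5, E17.5 and P7, with 93501273, 94023160 and 116038115 unique molecular identifiers (UMIs, 1 per captured molecule) and medians of 8503, 6262.5 and 14014 UMIs a cell. Mitochondrial genes took 3.80%, 4.80% and 7.80% of UMIs. The lists of barcode names are identical for all 3 libraries, so they cannot tell cells apart, and 0 cells had a duplicate count profile. Levels are CPM, a gene's UMIs for every 1e+06 UMIs of its cell class. UMIs were not divided by gene length, so CPM between genes compares captured 3′ ends.

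Cells were placed in classes by fixed markers, none of them a member, and every name below means only marker-like cells. Epithelial-like cells numbered 1328, 1527 and 5976 at E15.5, E17.5 and P7, fibroblast-like cells 3483, 4819 and 967, smooth-muscle-like cells (muscle-like below) 1105, 1293 and 446 and neuronal-like cells 719, 906 and 175. Glial-like cells numbered 225, 693 and 51 and Cajal-like cells 196, 301 and 25, and 1012, 1347 and 360 cells met no gate. Of the epithelial-like cells 15, 42 and 145 lay near the edge of the gate, of the fibroblast-like cells 314, 491 and 61, of the muscle-like cells 186, 61 and 103 and of the neuronal-like cells 42, 82 and 1. Of the glial-like cells 19, 153 and 10 lay near it, and of the Cajal-like cells 106, 122 and 3. The 8 fibroblast markers, collagens among them, summed to 97.3, 159 and 37.4 CPM in epithelial-like cells, against 9323, 18733 and 40886 CPM in fibroblast-like cells. Epithelial markers had a median over cells of 249 CPM in fibroblast-like cells at P7, against 0 at E15.5 and E17.5, beside 10902 CPM in epithelial-like cells at P7. The epithelial gate at E15.5 also took in 54 cells of a cluster led by Ctrb1, Pnliprp1 and Clps, genes of pancreatic enzymes, and 22 cells of a cluster led by Spp1, Clu and Krt18. At P7 the gate held 30 cells of a cluster led by Spp1 and Clu and 3 of one led by Ctrb1, and at E17.5 no cluster was led by either gene. The members were among the genes clustered. A calculation without those clusters, chosen after the data were seen, is given where it moves a result.

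The promoters of 4 members are printed to show where the letters of the CREB element and of the TATA box lie in them. RefSeq promoter windows (GRCm38.p6) were at hand for 8 of the 10 members, and the 4 shown are those whose 250 bases before the start hold no annotated exon. Capitals mark the half-site of the CREB element, TGACG or CGTCA, and the TATA box TATAAA. Fos lies at chr12:85473640-85473889 on the plus strand, Jun at chr4:95052223-95052472 on the minus strand, Junb at chr8:84978749-84978998 on the minus strand and Nr4a1 at chr15:101266596-101266845 on the plus strand, each read 5′ to 3′ towards the start.
Fos: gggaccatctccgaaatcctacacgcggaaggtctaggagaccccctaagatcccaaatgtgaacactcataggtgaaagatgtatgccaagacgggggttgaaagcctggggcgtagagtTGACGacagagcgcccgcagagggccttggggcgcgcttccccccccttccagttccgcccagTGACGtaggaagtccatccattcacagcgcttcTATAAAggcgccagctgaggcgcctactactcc
Jun: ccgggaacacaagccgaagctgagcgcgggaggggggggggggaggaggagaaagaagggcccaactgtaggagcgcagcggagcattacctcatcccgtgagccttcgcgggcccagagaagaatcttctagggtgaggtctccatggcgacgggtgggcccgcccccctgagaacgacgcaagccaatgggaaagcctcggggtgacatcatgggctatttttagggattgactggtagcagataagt
Junb: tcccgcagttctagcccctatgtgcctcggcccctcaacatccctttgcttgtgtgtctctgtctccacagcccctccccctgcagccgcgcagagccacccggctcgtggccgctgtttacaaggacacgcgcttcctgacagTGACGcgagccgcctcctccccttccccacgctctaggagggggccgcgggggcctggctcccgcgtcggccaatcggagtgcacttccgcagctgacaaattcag
Nr4a1: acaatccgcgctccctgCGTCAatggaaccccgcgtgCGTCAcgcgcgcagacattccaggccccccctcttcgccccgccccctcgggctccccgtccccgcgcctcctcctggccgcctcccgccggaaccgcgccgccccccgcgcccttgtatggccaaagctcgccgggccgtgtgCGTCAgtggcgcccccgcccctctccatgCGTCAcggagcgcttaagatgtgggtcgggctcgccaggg

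The Fos window holds half-sites 129 and 66 bases before the start and a TATA box 33 bases before it. Nr4a1 has 4 half-sites, at 233, 213, 69 and 40 bases, Junb has 1 at 106 bases, and in Jun none of the motifs searched was found, which says only that these letters are not in this window. Over the 8 windows the half-site, searched on both strands, was in 6 members, Fos, Fosb, Junb, Atf3, Nr4a1 and Dusp1, and in 17.8% of all 32851 promoter windows. The full element TGACGTCA, which contains the half-site, was in Dusp1 alone of the 8, at 143 bases, and in 1.55% of all windows. The EGR site GCGNGGGCG was in Fosb, Nr4a1 and Zfp36 and in 4.7% of all windows, the CArG box bound by SRF was in Zfp36 and in 1.47%, TATAAA on the strand of the gene was in Fos and in 7.59%, and the AP-1 site TGANTCA was in 0 of the 8 and in 6.75%. A match is a description of the letters and not a measured binding site. Bases farther upstream and the promoters of Egr1 and Ier2 were not searched, so the absence of a motif covers these windows alone.

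Fos, the AP-1 subunit that must pair with a Jun protein to bind DNA, was lowest in epithelial-like cells at E15.5 and E17.5, and at P7 lower there than in every other class but the 25 Cajal-like cells. Epithelial-like cells had 40.0 (37.7 to 42.3), 93.0 (89.2 to 97.0) and 488 (483 to 492) CPM at E15.5, E17.5 and P7. Fibroblast-like cells had 1188 (1176 to 1201), 2455 (2436 to 2474) and 4471 (4411 to 4532) CPM, and muscle-like cells 1200.1 (1179 to 1222), 2017 (1991 to 2044) and 5494 (5395 to 5595) CPM. Without the clusters led by Ctrb1 or Spp1, the epithelial-like level at E15.5 was 25.9 CPM. In each of these 3 classes the level was higher at each later stage. Neuronal-like cells had 327, 833 and 1591 CPM, and glial-like cells 459, 4473 and 5825 CPM, where P7 rests on 51 cells. Cajal-like cells, named for the pacemakers of the gut wall, had 1450.5 and 2287 CPM at E15.5 and E17.5, and 357 CPM in 25 cells at P7. Pericyte-like cells, which wrap small vessels, had 709 CPM at E15.5 and 1834 CPM at E17.5. The order at E15.5 was Cajal-like first, then muscle-like and fibroblast-like, which overlapped within counting error, then pericyte-like, glial-like, neuronal-like and epithelial-like. Of the 196 Cajal-like cells at E15.5, 106 lay near the edge of the gate, so that first place is uncertain. By P7 the glial-like and muscle-like cells stood first with overlapping intervals, then fibroblast-like, neuronal-like, epithelial-like and Cajal-like.

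**Figure D1:**
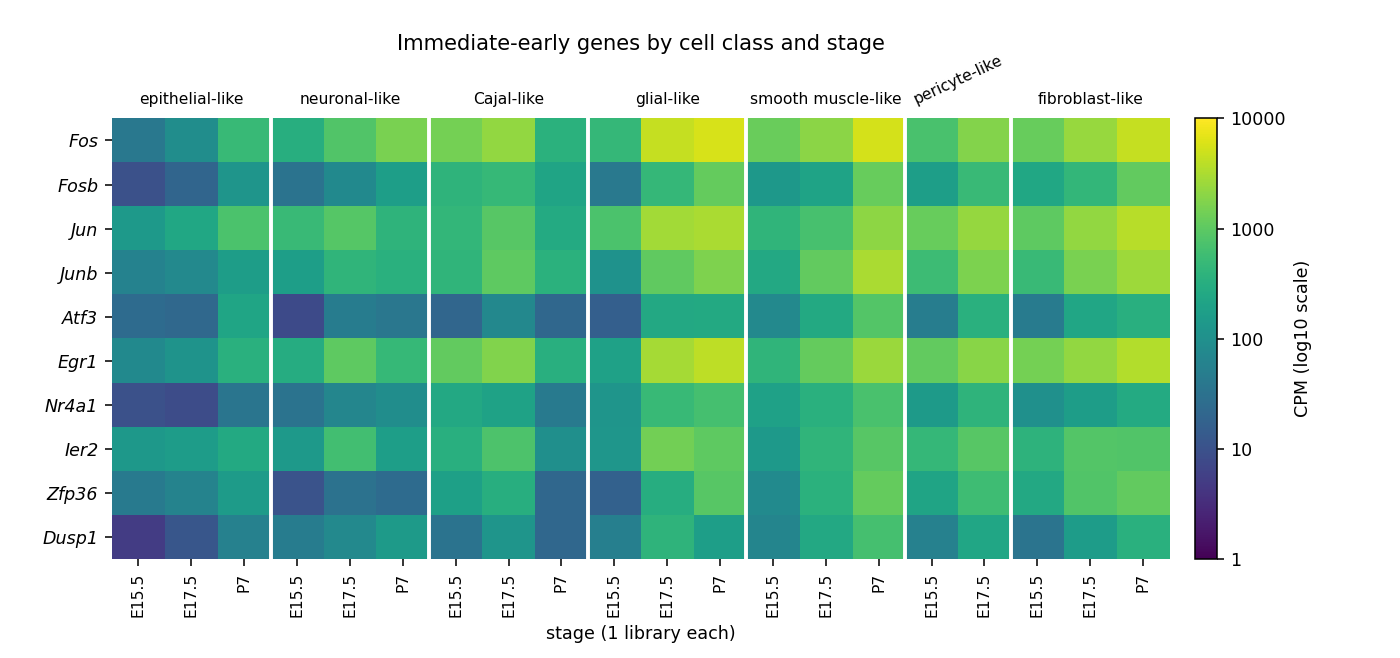
Level of each of the 10 immediate-early genes (rows) in 7 marker-gated cell classes at E15.5, E17.5 and P7 (columns, 1 library a stage), as CPM on a log10 colour scale from 1 to 10000 CPM. In the Fos row the epithelial-like columns are the darkest at E15.5 and E17.5, with 40.0, 93.0 and 488 CPM, and glial-like and muscle-like columns at P7 are among the brightest.

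Fosb, the close relative of Fos, had 9.71, 20.1 and 121 CPM in epithelial-like cells at E15.5, E17.5 and P7, 136, 207 and 1197 CPM in muscle-like cells and 243, 443 and 1095 CPM in fibroblast-like cells. Neuronal-like cells had 33.8, 80.2 and 174 CPM. The level was higher at each later stage in all 4 classes, and muscle-like cells at P7 stood apart from their earlier stages, with a log2 ratio of 2.53 (2.45 to 2.62) for P7 against E17.5. Jun, the partner that can also pair with itself, had 139, 239.5 and 735 CPM in epithelial-like cells, 412, 695 and 2127 CPM in muscle-like cells and 1016, 2265 and 3677 CPM in fibroblast-like cells. In neuronal-like cells Jun had 515, 876 and 402 CPM, and so was lower at P7 than at either embryonic stage. The exons of Jun overlap those of the opposite-strand gene Junos, and the sources used here do not give whether counting used strand, so its level is uncertain to that extent.

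The ratio of Fos to Jun differed between classes. The ratio of their CPM was 2.91, 2.90 and 2.58 in muscle-like cells at E15.5, E17.5 and P7, and 1.17, 1.08 and 1.22 in fibroblast-like cells. It was 0.29, 0.39 and 0.66 in epithelial-like cells, so Jun exceeded Fos there at every stage. Other classes shifted with stage. Neuronal-like cells had 0.63, 0.95 and 3.96, Fos being higher and Jun lower at P7, glial-like cells 0.62, 1.62 and 1.87 and Cajal-like cells 3.28, 2.51 and 1.27.

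Junb, an AP-1 subunit often induced with Fos but a weaker activator than Jun, had 255, 1112 and 3109 CPM in muscle-like cells and 519, 1549 and 2549 CPM in fibroblast-like cells. Epithelial-like cells had 59.6, 76.3 and 168 CPM and neuronal-like cells 175, 412 and 346 CPM. Muscle-like cells at E15.5 thus held less Junb than Fos by a wide margin and came closer to it by E17.5, where the log2 ratio of Junb against E15.5 was 2.12 (2.06 to 2.18), beside 0.75 (0.72 to 0.78) for Fos. The exons of Junb overlap those of Prdx2 on the other strand, with the same uncertainty as for Jun.

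Atf3, a stress-induced factor of the ATF family, had the largest ratio of the 10 members in epithelial-like cells at P7 against E17.5. It had 25.1, 22.3 and 224 CPM in them at E15.5, E17.5 and P7, with a log2 ratio of 3.33 (3.20 to 3.45) at that step. Its ratio for E17.5 against E15.5 was -0.17, and turned to 1.07 with classes taken from clusters. A few cells carried the E15.5 level, since the 22 cells of the cluster led by Spp1 held 426 of the 739 Atf3 UMIs of the 1328 cells, at 1441 CPM, and the 54 of the cluster led by Ctrb1 had 57.6 CPM. Without both, the E15.5 level was 8.39 CPM and the log2 ratio for E17.5 against E15.5 was 1.41. Fibroblast-like cells had 46.7, 229 and 333 CPM, and muscle-like cells 76.2, 268 and 858 CPM. In fibroblast-like cells most of the difference lay before birth, with a log2 ratio of 2.30 (2.21 to 2.38) for E17.5 against E15.5 and 0.54 (0.46 to 0.62) for P7 against E17.5. Neuronal-like cells had 7.82, 47.1 and 38.8 CPM, less at each stage than fibroblast-like or muscle-like cells.

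Egr1, a zinc finger factor switched on through SRF, was close to Fos in fibroblast-like cells, at 1458, 2267 and 3412 CPM. Muscle-like cells had 413, 1128 and 2524 CPM, epithelial-like cells 80.5, 112 and 343 CPM and neuronal-like cells 298, 1032 and 479.7 CPM. Egr1 exceeded Fos before birth in epithelial-like cells and not at P7, the ratio of Egr1 to Fos being 2.02, 1.20 and 0.70 at E15.5, E17.5 and P7. Nr4a1, an orphan nuclear receptor, was the member with the lowest level in epithelial-like cells at E17.5 and P7, at 9.98, 8.64 and 35.4 CPM over the 3 stages. It was higher in muscle-like cells, at 195, 348 and 718 CPM, than in fibroblast-like cells, at 102, 166 and 277 CPM, at every stage, whereas Jun, Junb and Zfp36 stood higher in fibroblast-like cells at E15.5 and E17.5. Ier2, a nuclear protein of the early response, had 386, 836 and 810.4 CPM in fibroblast-like cells. Epithelial-like cells had 135, 165 and 265 CPM of Ier2. In muscle-like cells it had 139, 409 and 912 CPM, and in neuronal-like cells 139, 614 and 174 CPM.

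The 2 members that act against the response had the same order of stages as Fos in fibroblast-like, muscle-like and epithelial-like cells. Zfp36, which binds AU-rich mRNAs and hastens their decay, stood at 259, 831 and 1107 CPM in fibroblast-like cells. Muscle-like cells had 80.6, 362 and 1154 CPM and epithelial-like cells 42.5, 60.6 and 158 CPM. It was scarce in neuronal-like cells, at 10.6, 32.2 and 24.7 CPM, and in glial-like cells at E15.5, at 17.8 CPM. Glial-like cells at E17.5 had 310.3 CPM, a log2 ratio of 4.13 (3.64 to 4.65). Dusp1, a phosphatase that switches off MAP kinases, was low at E15.5, at 5.09 CPM in epithelial-like cells, 34.9 CPM in fibroblast-like and 66.3 CPM in muscle-like cells. At E17.5 it had 11.6, 165 and 259 CPM in those 3 classes, and at P7 56.9, 339.9 and 654 CPM. Zfp36 shares exon sequence with Gm44710 and Dusp1 with Ergic1, both on the opposite strand.

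Counted as called where the ratio passed 1.5-fold with its interval clear of no change and at least 100 UMIs in both libraries together, 10 of 10 members were higher at E17.5 than at E15.5 in fibroblast-like cells. Over all genes tested there, 10.9% were called higher and 11.1% lower. Muscle-like cells also had 10 of 10 higher, against 5.62% of genes higher and 22.6% lower, and neuronal-like cells 10 of 10, against 5.18% higher and 3.83% lower. Epithelial-like cells had 4 of 10 higher, Fos, Fosb, Jun and Dusp1, against 10.7% of genes higher and 12.5% lower. With classes taken from clusters that count was 9, and without doublet removal 7. Without the clusters led by Ctrb1 or Spp1 it was 8. No member was called lower at this step in these 4 classes. The median log2 ratio of the 10 members was 1.14 in fibroblast-like, 1.503 in muscle-like, 1.30 in neuronal-like and 0.49 in epithelial-like cells, beside -0.11, -0.29, -0.08 and -0.14 over all genes tested, in that order of classes.

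At P7 against E17.5 the classes parted. Epithelial-like cells now had 10 of 10 members higher, against 21.1% of all genes higher and 11.7% lower, with a median log2 ratio of 1.83 beside 0.09 for all genes. Fibroblast-like cells had 7 of 10 higher, against 19.2% higher and 8.05% lower. The 3 that were not called there were Ier2, at -0.04 (-0.09 to 0.01), Zfp36, at 0.41 (0.37 to 0.46), and Atf3. The count was 3 with mitochondrial, haemoglobin and ribosomal genes out of the denominator and 4 with libraries scaled by the median gene. Muscle-like cells had 10 of 10 higher, against 28.0% higher and 10.7% lower. In neuronal-like cells 3 were higher, Fos at 0.93 (0.88 to 0.99), Fosb at 1.11 (0.93 to 1.29) and Dusp1 at 1.00 (0.81 to 1.19), and 3 were lower, Jun at -1.12 (-1.22 to -1.03), Egr1 at -1.11 (-1.20 to -1.02) and Ier2 at -1.82 (-1.97 to -1.68). The background for that class was 26.5% higher and 11.0% lower, so 3 of 10 higher is close to that background. All 175 neuronal-like cells at P7 lay in 1 cluster led by Vip, a neuropeptide of enteric neurons, whereas those of E17.5 lay in several clusters. There, a change within neurons and a change in which neurons were captured cannot be told apart.

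**Figure D2:**
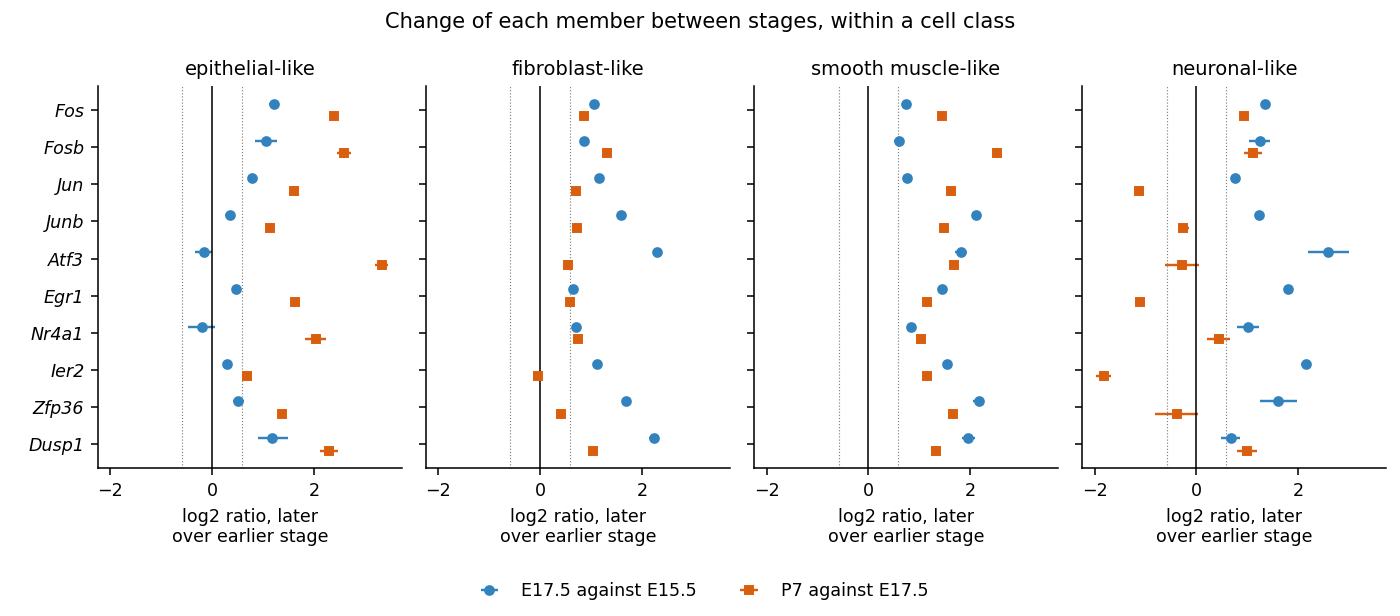
Log2 ratio of CPM (x axis, later over earlier stage) of each member in epithelial-like, fibroblast-like, muscle-like and neuronal-like cells, for E17.5 against E15.5 (blue circles) and P7 against E17.5 (orange squares). Bars are intervals for counting error, dotted lines mark 1.5-fold, and Jun, Egr1 and Ier2 lie left of 0 for P7 in neuronal-like cells alone of the 4 classes, save for Ier2 in fibroblast-like cells at -0.04.

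In muscle the step to P7 went with a change in which cells the gate held. At P7, 347 of the 446 muscle-like cells lay in a cluster led by Eln (elastin) and Acta2, and 83 in a cluster led by Actg2, the enteric actin of visceral muscle, while at E17.5 most lay in clusters led by Actg2. Split at 2000 CPM of Actg2, a cut chosen after the data were seen, 865, 1196 and 110 cells were Actg2-high at E15.5, E17.5 and P7. The other 240, 97 and 336 were Actg2-low, and 115, 40 and 86 of these lay near the edge of the muscle gate. The members summed to 2598, 6754 and 9275 CPM in Actg2-high cells at E15.5, E17.5 and P7, and to 4586, 7782 and 23097 CPM in Actg2-low cells. Within Actg2-high cells 10 of 10 members were higher at E17.5 than at E15.5, against 5.82% of all genes. At P7 against E17.5, 3 of 10 were higher in them, Fos at 0.59 (0.52 to 0.66), Fosb at 1.45 (1.28 to 1.61) and Jun at 0.71 (0.60 to 0.81), against 16.7% of all genes. The Actg2-low cells at P7 carried the high values of the class, with Fos at 6645 CPM against 2989 CPM in Actg2-high cells, and Atf3 at 1100.2 CPM against 329 CPM in Actg2-high cells.

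Glial-like cells had the widest step before birth of the classes compared. Their summed level was 14538 CPM at E17.5 and 1886 CPM at E15.5, and 10 of 10 members were called higher, against 10.9% of all genes, with log2 ratios between 1.89 (1.81 to 1.97) for Jun and 4.13 (3.64 to 4.65) for Zfp36. Fos stood at 4473 CPM at E17.5, above the 2455 CPM of fibroblast-like cells, whereas at E15.5 it stood at 459 CPM, below the 1188 CPM of fibroblast-like cells. At P7 the glial-like level was 18827 CPM, from 51 cells of which 34 had under 3000 UMIs. The E15.5 glial-like cells lay in clusters that carried no class name, and 153 of the 693 at E17.5 lay near the edge of the gate.

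Pooled over all kept cells, the members summed to 2916, 6793 and 3801 CPM at E15.5, E17.5 and P7, so the pooled level was lower at P7 than at E17.5 while each of the epithelial-like, fibroblast-like and muscle-like classes was higher. Epithelial-like cells, which had the lowest level of those 3, were 16.2%, 13.7% and 74.7% of kept cells at E15.5, E17.5 and P7, shares that the sort can set.

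Within the P7 epithelium the finer classes differed. The members summed to 1368 CPM in enterocyte-like cells, the absorptive cells, 3941 CPM in crypt-or-progenitor-like cells, 4669.8 CPM in goblet-like cells, 5711 CPM in 47 Paneth-like cells and 6606 CPM in enteroendocrine-like cells. Fos was 154 CPM in enterocyte-like cells, 893 CPM in crypt-or-progenitor-like cells, 1122 CPM in goblet-like cells, 1338 CPM in Paneth-like cells and 886 CPM in enteroendocrine-like cells. Enteroendocrine-like cells held the most Jun, at 1937 CPM, and the most Egr1, at 1201 CPM. Nr4a1 was 5.06 CPM in enterocyte-like cells, against 200.0 CPM in Paneth-like cells. Zfp36 was the member that differed least, with 167 CPM in enterocyte-like and 133 CPM in crypt-or-progenitor-like cells.

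Set against E17.5, crypt-or-progenitor-like cells at P7 had 10 of 10 members higher, against 18.4% of all genes. Fos was 893 CPM at P7 and 40.4 CPM at E17.5, a log2 ratio of 4.47 (4.28 to 4.66), and Atf3 was 379 CPM and 5.24 CPM, a log2 ratio of 6.18 (5.67 to 6.74). The E17.5 values are low enough that free RNA could make up part of them, which was not tested. The gate was relative to each library, so it could hold unlike cells at these stages. In crypt-or-progenitor-like cells with 1 or fewer members detected, thinned to equal depth, crypt markers averaged 2.43 UMIs at E17.5 and 12.2 UMIs at P7. For this class, a change within cells and a change in which cells the gate held cannot be told apart. Goblet-like cells had 7 of 10 higher, against 13.4% of all genes. Enterocyte-like cells had 7 higher and 1 lower, against 23.6% higher and 16.0% lower, the lower one being Nr4a1, at -0.77 (-1.14 to -0.38). Before birth, crypt-or-progenitor-like cells were the lowest of the finer classes for Fos at E17.5, and goblet-like cells at E17.5 already had 465 CPM, against 75.0 CPM in 70 cells at E15.5.

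**Figure D3:**
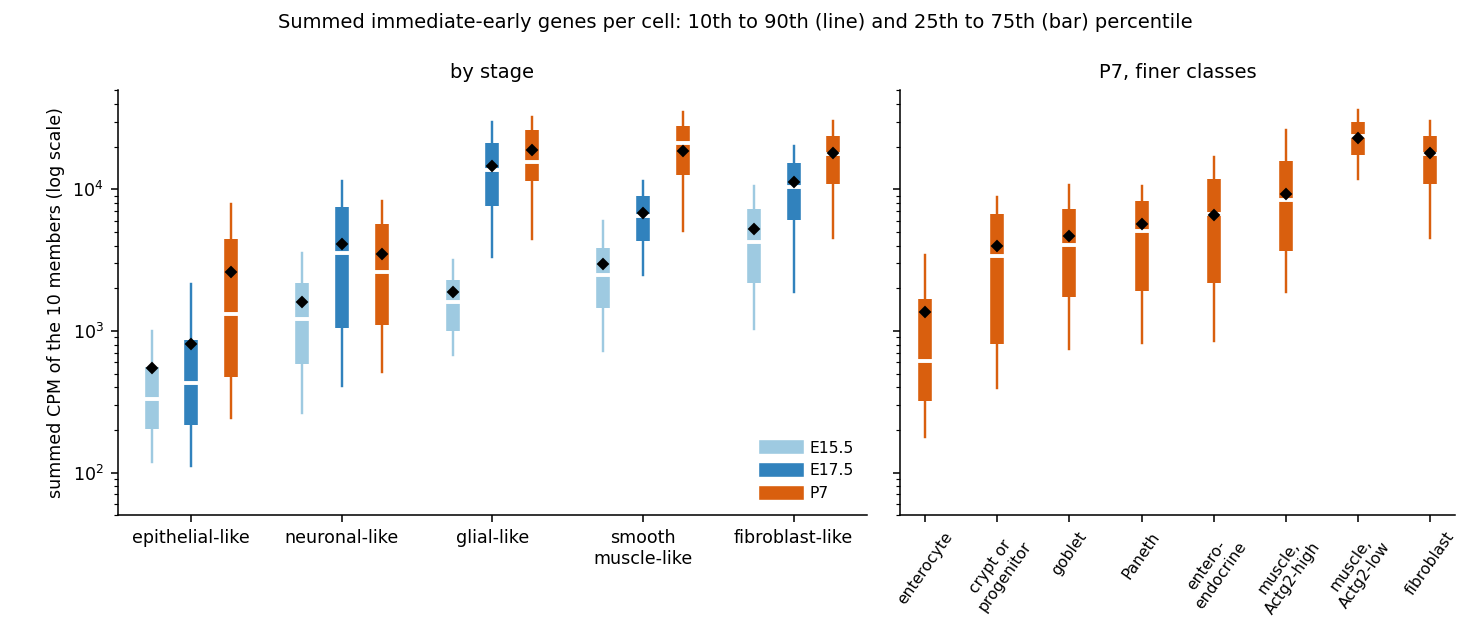
Summed CPM of the 10 members per cell on a log scale (y axis), by class and stage (left) and in finer P7 classes (right). Thin lines span the 10 to 90 percentiles over cells, thick bars the 25 to 75 percentiles, white marks the median and black diamonds the class as a whole, such as 1368 CPM in enterocyte-like and 23097 CPM in Actg2-low muscle cells.

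Shares of cells with at least 1 UMI were compared after each cell was thinned to 3000 UMIs, leaving out shallower cells. Fos was detected in 7.63%, 15.51% and 44.0% of epithelial-like cells at E15.5, E17.5 and P7, with P7 at 44.0% (42.7% to 45.3%). It was detected in 75.9%, 86.7% and 96.6% of fibroblast-like cells, 84.3%, 89.4% and 97.6% of muscle-like cells and 47.3%, 72.5% and 82.7% of neuronal-like cells. Without thinning the shares for Fos were 29.3%, 35.7% and 68.4% in epithelial-like cells and 87.2%, 89.1% and 97.0% in fibroblast-like cells. Shares of fibroblast-like cells were near their ceiling at P7, so CPM tells more there. Dusp1 was detected in 8.81%, 28.5% and 41.2% of fibroblast-like and 2.37%, 3.53% and 13.0% of epithelial-like cells, and Atf3 in 10.4%, 33.0% and 31.8% of fibroblast-like and 3.89%, 4.53% and 27.4% of epithelial-like cells. No class is known to lack these genes. Crypt-or-progenitor-like cells of the embryo gave the low end, with Fos in 5.77% and 4.75% at E15.5 and E17.5, and how much of a share of that size is free RNA was not tested.

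The members were detected together in the same cells more than their single shares would give. At 3000 UMIs a cell, 5 or more of the 10 were detected in 2.60, 7.72 and 32.6% of epithelial-like cells at E15.5, E17.5 and P7, against 0.170, 0.682 and 20.4% if each member were detected independently. The variance of the number detected, divided by its value under independence, was 2.09, 2.48 and 3.75 in epithelial-like cells, 2.32, 2.96 and 2.56 in fibroblast-like cells, 2.06, 2.28 and 3.28 in muscle-like cells and 1.88, 2.68 and 2.44 in neuronal-like cells, where 1 is independence. In the 3 largest clusters of E15.5 epithelial-like cells, taken alone, it was 1.37, 1.32 and 1.30. For the 12 heat shock genes that ratio lay between 0.936 and 1.72 in these classes, and for the 10 reference genes between 0.970 and 1.09. The ratio also depends on the number of genes in a list and on how often each is detected, which were not matched between lists. For the 38 other primary-response genes, the list nearest in kind to the members, it was 1.92, 1.83 and 2.46 in epithelial-like, 1.93, 3.23 and 2.69 in fibroblast-like, 1.77, 2.51 and 4.11 in muscle-like and 1.14, 2.04 and 1.51 in neuronal-like cells, so the members were not alone in being detected together. Fibroblast-like cells with 5 or more were 59.1, 84.3 and 92.0% of their class, against 59.5, 93.0 and 99.1% if independent. There the excess lay at both ends. Cells with 8 or more were 7.88, 34.3 and 52.2%, against 1.91, 19.8 and 45.2% if independent, and 2.51, 2.46 and 0.589% had none of the 10, against 0.0316% at E15.5, and less at the later stages, if independent. These are descriptions over cells of single libraries that share depth and handling.

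**Figure D4:**
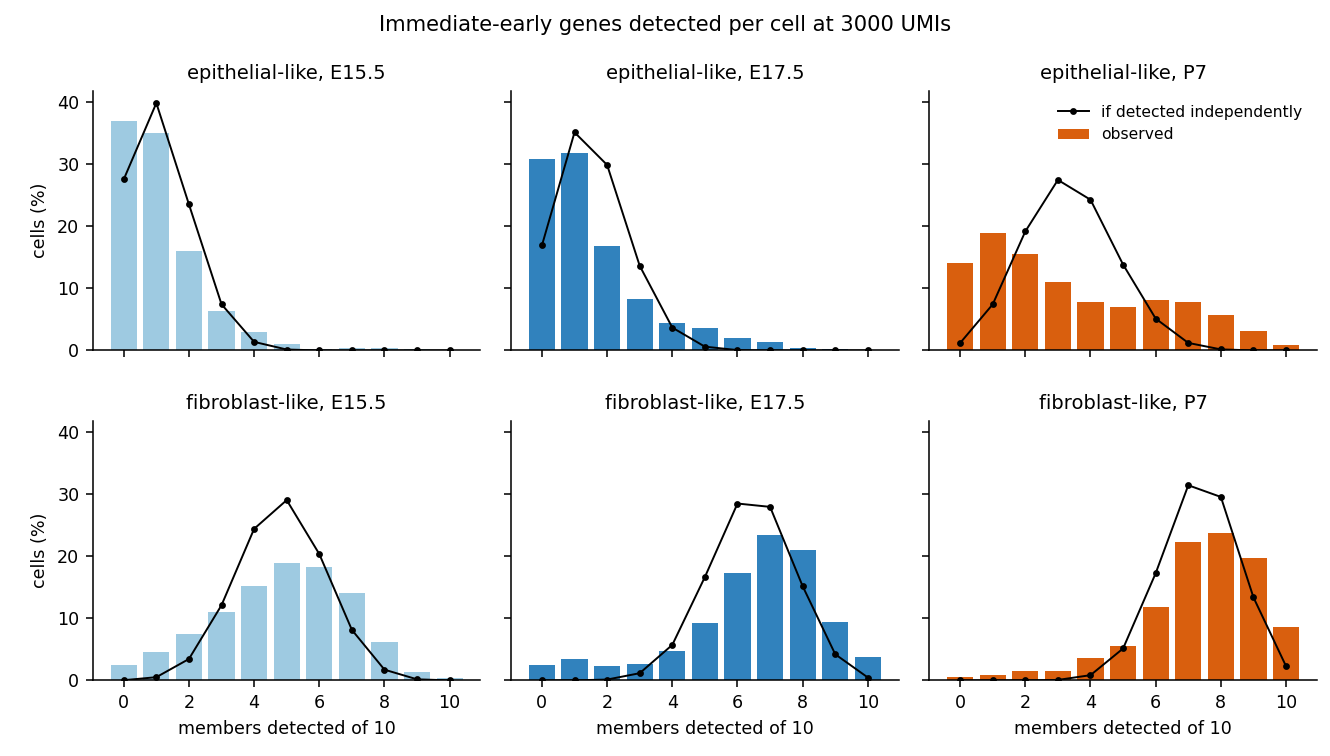
Number of the 10 members detected per cell at 3000 UMIs (x axis) and percent of cells (y axis) in epithelial-like (top) and fibroblast-like (bottom) cells at E15.5, E17.5 and P7. Bars are observed and black points what independent detection would give, and the P7 epithelial-like bars spread wide, with 32.6% of cells at 5 or more and 9.79% at 8 or more.

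Among pairs of members, Fos with Egr1 had the highest mean phi, the correlation of detection over cells, at 0.36 (0.20 to 0.54) over the 4 classes and 3 libraries, the brackets here giving the lowest and highest of the 12. Junb with Egr1 followed at 0.34 (0.19 to 0.56), and Egr1 with Ier2 at 0.30 (0.13 to 0.55). Zfp36 with Dusp1 had the lowest mean, at 0.09 (-0.0007 to 0.24), and Nr4a1 with Dusp1 came next, at 0.099 (0.01 to 0.27). The value that phi can reach depends on how often each gene of the pair is detected, which differed between members. All 10 genes shared the depth and the libraries behind these values.

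The P7 crypt-or-progenitor-like cells held a wide and uneven spread. Of 1617 such cells with 3000 UMIs, 14.1% had 1 member detected, 6.86% had 4 and 13.4% had 7, so the counts had a low and a high peak with a dip between. The variance ratio was 3.92, and 50.6% had 5 or more. P7 epithelial-like cells of no finer class were alike, with a ratio of 3.88 and 16.7% of cells at 1 member, 6.34% at 5 and 9.04% at 7. The ratio was 3.57 in enteroendocrine-like, 2.74 in goblet-like and 2.68 in enterocyte-like cells at P7. The 818 crypt-or-progenitor-like cells with 5 or more had a median of 14258 UMIs and 6.14% mitochondrial UMIs, and the 343 with 1 or fewer had 15286 UMIs and 6.07%. Per 3000 UMIs, other primary-response genes averaged 10.1 and 3.40 UMIs in those 2 sets of cells. Heat shock genes averaged 26.5 and 25.6 UMIs, reference genes 10.1 and 9.83 UMIs, and crypt markers 13.9 and 12.2 UMIs. Fibroblast markers were near 0 in both, at 0.123 and 0.0962 UMIs. The cells were chosen by the members, so these values describe the sets and test nothing.

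**Figure D5:**
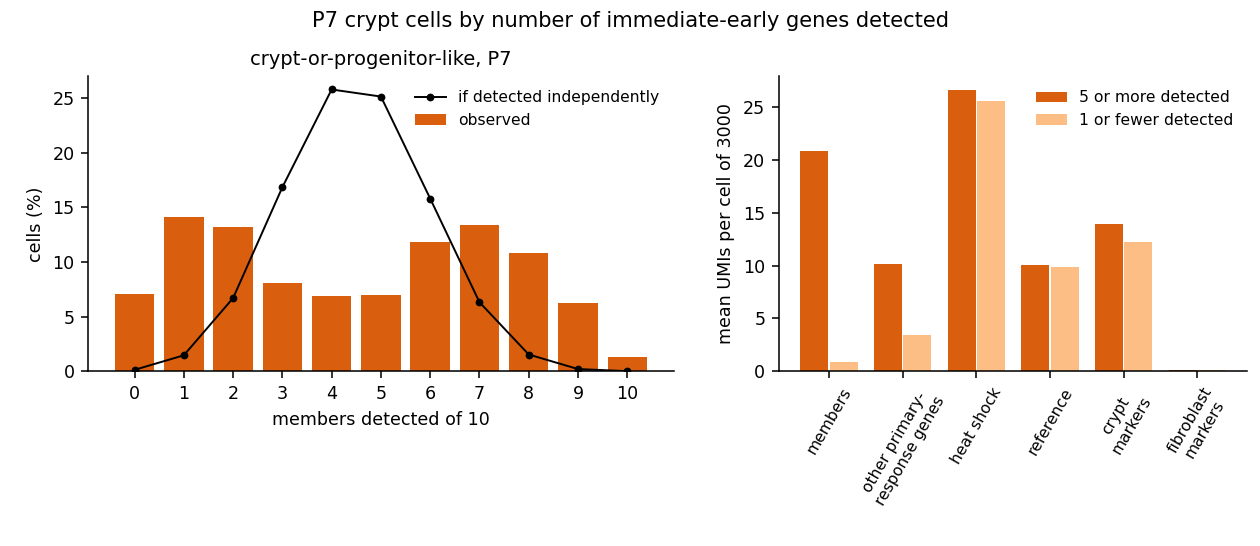
Left, percent of P7 crypt-or-progenitor-like cells (y axis) by number of members detected of 10 (x axis), observed (bars) and under independent detection (points). Right, mean UMIs per 3000 of each gene list in cells with 5 or more (dark) and with 1 or fewer (light) members detected, where heat shock genes stand at 26.5 and 25.6.

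Clusters of the P7 library led by Olfm4 or Lypd8 also fell into high and low ones, and since the members were among the genes clustered this is description only. The epithelial-like cells of clusters 9, 13 and 15 had Fos at 1589, 1728 and 1396 CPM, and clusters 6, 11 and 14 had 206, 147 and 156 CPM. Cluster 12, also led by Lypd8, had Fos at 97.8 CPM, Olfm4 at 19.9 CPM and the enterocyte marker Apoa4 at 2875 CPM. Olfm4, a marker of crypt-base cells, was 3793, 3038 and 2239.5 CPM in clusters 9, 13 and 15, and 1688, 3655 and 1029 CPM in clusters 6, 11 and 14, so it was near equal only between clusters 9 and 11. The variance ratio was 1.31, 1.41 and 1.31 within clusters 9, 13 and 15, where 95.6, 92.3 and 94.7% of cells had 5 or more members, and 2.12, 1.501 and 1.97 within clusters 6, 11 and 14, against 3.92 over the crypt-or-progenitor-like class.

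Fibroblast-like cells at E17.5 could be described the same way, with 3559 cells at 5 or more members and 253 at 1 or fewer. Heat shock genes averaged 27.3 UMIs per 3000 in cells with 5 or more and 14.0 in cells with 1 or fewer. Hspa1a and Hspa1b, inducible chaperones, together averaged 1.18 and 0.0791 UMIs. Other primary-response genes averaged 38.1 and 4.996 UMIs, and reference genes 13.9 and 14.9. Median depth was 5537 UMIs in cells with 5 or more and 5091 UMIs in cells with 1 or fewer.

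The counts of the other lists are to be read against the shares of all genes called in the same class and step, given above. Of 38 other primary-response genes, fibroblast-like cells had 29 higher and 2 lower of 37 counted at E17.5 against E15.5, and 5 higher and 12 lower of 36 at P7 against E17.5. The first step thus had most of this list higher, with Tnfaip3, a brake on NF-kB, at 24.3 CPM at E17.5 and 2.20 CPM at E15.5, Ier3 at 329 CPM at E17.5 and 38.9 CPM at E15.5 and Gadd45b at 588 CPM at E17.5 and 82.2 CPM at E15.5. At the second step, where 7 of 10 members were higher, more of this list was lower than higher, with Klf4 at 261 CPM at P7 and 69.8 CPM at E17.5 and Trib1 at 34.0 CPM at P7 and 99.5 CPM at E17.5. Muscle-like cells had 27 higher and 0 lower of 35 and then 17 higher and 2 lower of 34, epithelial-like cells 14 higher and 2 lower of 33 and then 19 higher and 3 lower of 38, and neuronal-like cells 24 higher and 0 lower of 33 and then 6 higher and 9 lower of 33. In muscle-like cells Cebpd stood at 749 CPM at E17.5 and 68.0 CPM at E15.5. In epithelial-like cells Egr2, a relative of Egr1, stood at 12.1 CPM at P7 and 0.620 CPM at E17.5, and Ccn2, a target of mechanical signalling, at 0.230 CPM at P7 and 3.56 CPM at E17.5.

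Of the 18 upstream factors and kinases that switch the members on, fibroblast-like cells had 1 higher and 1 lower of 18 at E17.5 against E15.5 and 0 higher and 0 lower of 18 at P7 against E17.5. Epithelial-like cells had 0 higher and 2 lower of 18 and then 2 higher and 0 lower of 17, and muscle-like cells 0 higher and 2 lower of 18 and then 6 higher and 1 lower of 17. Against the shares over all genes given above, 6 of 17 in muscle-like cells stands beside 28.0% and 2 of 17 in epithelial-like cells beside 21.1%. In fibroblast-like cells the one called higher at E17.5 was Crem, a factor of the CREB family, at 19.8 CPM at E17.5 and 11.4 CPM at E15.5, and the one called lower was Srf, at 10.4 CPM at E17.5 and 19.7 CPM at E15.5. Of the 12 heat shock genes, fibroblast-like cells had 1 higher and 4 lower of 12 and then 0 higher and 9 lower of 12, muscle-like cells 2 higher and 1 lower of 12 and then 0 higher and 9 lower of 12, epithelial-like cells 0 higher and 5 lower of 12 and then 0 higher and 6 lower of 12, and neuronal-like cells 4 higher and 0 lower of 12 and then 1 higher and 4 lower of 12. Hspa1b was 21.4 CPM at P7 and 78.0 CPM at E17.5 in fibroblast-like cells. Summed, heat shock genes had 10287, 8573 and 4989 CPM in fibroblast-like cells at E15.5, E17.5 and P7, while the members summed to 5253, 11206 and 18071 CPM. The 8 genes of the integrated stress response had 3 higher and 1 lower of 6 and then 1 higher and 1 lower of 6 in fibroblast-like cells, and 3 higher and 0 lower of 8 and then 2 higher and 4 lower of 8 in epithelial-like cells. The 10 reference genes had 0 higher and 1 lower of 10 and then 2 higher and 2 lower of 10 in fibroblast-like cells, 0 higher and 1 lower of 10 and then 2 higher and 1 lower of 9 in muscle-like cells, and 0 higher and 1 lower of 10 and then 0 higher and 2 lower of 10 in epithelial-like cells.

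The gene whose level over cells was most like that of the members, by mean Pearson r within 18 class and library combinations, was Btg2, an antiproliferative early gene, at 0.59 (0.24 to 0.72), the brackets giving the lowest and highest of the 18. Jund, the AP-1 subunit that is present without a stimulus, followed at 0.41 (0.24 to 0.61), then Socs3, a brake on cytokine signalling, at 0.35 (0.08 to 0.60), Ppp1r15a at 0.34 (0.14 to 0.63) and Ccn1 at 0.33 (0.06 to 0.66). Cebpd, Gadd45b, Csrnp1, Adamts1 and Klf6 completed the first 10 of 8461 genes ranked, with means of 0.30, 0.30, 0.29, 0.29 and 0.29. Of the 10, 9 are in the list of 38 other primary-response genes, and Adamts1, a secreted protease, is not. That list was chosen with earlier results of these data known, so the overlap is description only. The correlations share depth and library.

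Per the labels, the epithelium was shaken loose and the mesenchyme left behind was dissociated separately before both were combined, stained on ice and sorted. The fraction of origin was not recorded per cell, and the duration at each stage is not given in the sources used here. Class and handling, and stage and library, therefore cannot be told apart for any of these genes.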

How the data were processed

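Small intestines of wild-type, untreated mice gave 3 libraries, 1 a stage. The authors deposited unnormalized UMI counts, whole numbers for each gene in each cell, as the matrix headers and values show. Over the 3 libraries, cells held 501 to 6989 detected genes and at most 14.999% mitochondrial UMIs. Cells beyond these bounds are absent from the matrices, so nothing is known of the members in them. The submitters' processing notes name Cell Ranger 7.2.0 and, as builds, GRCm38 and mm10. Use of strand is not given in the sources used here. Median depth was 8503, 6262.5 and 14014 UMIs a cell at E15.5, E17.5 and P7.

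Scrublet (scanpy 1.11.5, expected rate 6%) marked 243, 453 and 389 cells as doublets, which were removed. A cell entered a class when it held at least 3 of its markers, each at 1 or more UMI and at 0.5 times the library mean or above, with a lead of 20% of markers over the next class. A cell near the edge had exactly 3 markers or a lead close to that margin. Markers were fixed first and this rule was set after the data were seen. The members and gene lists were chosen with earlier results of these data known. UMIs were summed per class and library and scaled to CPM, with exact Poisson intervals. Ratios carry exact conditional binomial intervals and shares exact Clopper-Pearson intervals, at 95%, for counting error only. Ratios between stages and detection shares were calculated only for classes of at least 50 cells, while levels are also given for smaller ones. The finer epithelial classes used the same gate, with the mean taken over the epithelial-like cells of each library. Cells were thinned once to 3000 UMIs with a fixed seed. Leiden clusters (leidenalg 0.10.2, igraph 0.11.9, resolution 1, 2000 variable genes, 30 components, 15 neighbours), named with the same markers, served as an alternative.

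All 10 members are described. Genes most like them are the 10 other genes with the highest mean r, over genes with a mean of at least 0.1 UMI a cell and combinations of at least 100 cells. Of the other lists, the 3 genes with the highest and the 2 with the lowest ratio per step could be named. The calculations were tested on simulated data. Promoters and gene positions came from RefSeq (GRCm38.p6) and GENCODE tables. Python 3.11.15, numpy 2.4.6, scipy 1.17.1, pandas 2.3.3 and matplotlib 3.10.9 were used. Alternatives changed the gate, the doublets, the scaling, the fold and the thinning.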

Additional observations from a re-analysis of the deposited data

Results flagged for a closer look

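For 3 members the difference between P7 and E17.5 went in opposite directions in different classes. The log2 ratio of Jun for P7 against E17.5 was 1.62 in epithelial-like, 0.70 in fibroblast-like and 1.61 in muscle-like cells, but -1.12 in neuronal-like cells. Egr1 had 1.62, 0.59, 1.16 and -1.11 in the same order of classes. Ier2 had 0.68 in epithelial-like, 1.16 in muscle-like and -1.82 in neuronal-like cells, and -0.04, not called, in fibroblast-like cells. Of these 3 members, only Jun was called higher at this step within Actg2-high muscle cells. The neuronal-like cells at P7 lay in 1 cluster led by Vip. A change within cells and a change in which cells were captured cannot be told apart in those 2 classes. With 1 library a stage, the difference between classes was not tested.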

How the results depend on the processing

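The count of members higher at E17.5 than at E15.5 in epithelial-like cells, 4, was the least settled: it was 9 with classes from clusters, 7 without doublet removal, 6 with libraries scaled by the median gene and 8 without the clusters led by Ctrb1 or Spp1, a choice made after the data were seen. Atf3 at that step turned, its log2 ratio of -0.17 becoming 1.07 with clusters, 0.11 without doublet removal and 1.41 without those 2 clusters. In fibroblast-like cells the 7 members higher at P7 than at E17.5 became 3 without mitochondrial, haemoglobin and ribosomal genes in the denominator, 4 with median scaling and 2 at 2-fold. At 2-fold, muscle-like cells had 6 members higher at E17.5 than at E15.5, and neuronal-like cells 1 at P7 against E17.5. Other counts of members called in epithelial-like, fibroblast-like, muscle-like and neuronal-like cells stayed within 1.5 times under each of these alternatives. The same held with 1 marker more and with no minimum of UMIs. Counts in glial-like cells, Actg2-high muscle cells and the finer epithelial classes were not recalculated under the alternatives. Scaling by the median gene shifted all genes by -0.26 to 0.26 in log2 over the 4 classes and both steps.

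Shares of cells with 5 or more members move with depth and threshold by construction. With 2 UMIs needed, they were 1.15%, 1.46% and 14.4% of epithelial-like and 24.3%, 65.3% and 82.2% of fibroblast-like cells at E15.5, E17.5 and P7. At 6000 UMIs they were 6.65%, 14.3% and 42.9% and 81.3%, 92.3% and 95.7%. Without doublet removal the epithelial-like share at E17.5 was 11.0%. No paired analysis was possible because each stage is 1 library. With 1 library a stage, differences between animals, litters and dissections were not measured, and classes with few cells at P7, glial-like and Cajal-like, give wide intervals.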

Other observations

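Clusters within a class held different levels of the members, and the members were among the genes clustered. In P7 fibroblast-like cells, 83 cells of a cluster led by Fibin and Pdgfra, with a median of 2998 UMIs, had a summed level of 5589 CPM, against 16361 CPM in a cluster led by Adamdec1 and 21047 CPM in one led by Dcn and Col1a1. Fos was 1616, 3581 and 5462 CPM in those 3 clusters. Apoa4, an apolipoprotein of enterocytes, was 457 CPM in the Fibin cluster and 293 CPM in the Dcn and Col1a1 cluster.

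Clusters of neuronal-like cells at E17.5 also differed. The summed level was 4031 CPM in a cluster led by Stmn2 that held Tac1, 3134 CPM in one that held Cartpt, Gal and Vip, and 1533 CPM in one that held Gap43 and Sncg. The single neuronal-like cluster at P7, led by Vip, stood at 3472 CPM, beside 3134 CPM in the E17.5 cluster that held Vip.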
